A study of Mus musculus with 2 samples.

Results

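Globin transcripts were examined at the level of single droplets in 2 droplet-based libraries of dissociated mouse liver, 1 from WT mice and 1 from mice lacking NgBR in hepatocytes (N-LKO). The barcodes described here were chosen by their globin counts: at least 1000 unique molecular identifiers (UMIs, each standing for 1 captured transcript), at least 400 genes, at most 30% of UMIs from mitochondrial genes, at least 20 UMIs summed over Hba-a1, Hba-a2, Hbb-bs and Hbb-bt, and at most 1 UMI summed over Clec4f, Vsig4, Cd5l, Stab2, Ptprb, Skap1, Dcn and Ebf1. The last 8 genes mark Kupffer cells, endothelial cells, lymphocytes and stellate cells. The rule selected 27 of 20158 filtered barcodes in WT and 43 of 22214 in N-LKO, 70 of 42372 in all. No barcode sequence was shared between the WT and the N-LKO members.

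Globin at this level would name these barcodes erythroid cells, and the counts outside the globins went with that name only in part. Of 10 erythroid markers other than globin, Gata1, Klf1 and Hemgn were at 0 UMIs in all 70 barcodes, and the 10 together gave 9 UMIs in WT against 29 for N-LKO. Transcripts of hepatocytes were present in every barcode, as in nearly all other filtered barcodes (99.98% to 100% in each library). In N-LKO, 4 barcodes held 11 to 83 UMIs of neutrophil markers. No barcode had globin as most of its RNA. They are therefore called globin-rich barcodes below.

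Hemoglobin is a tetramer of paired alpha and beta globin chains around heme. In the mouse the adult alpha chains come from the neighboring genes Hba-a1 and Hba-a2, and the adult beta chains from Hbb-bs and Hbb-bt. Globin messages dominate the RNA of maturing red cells, while Gata1 and Klf1 switch on the erythroid program, Alas2 starts heme synthesis, and Slc4a1 (band 3) and Epb42 (protein 4.2) are parts of the red cell membrane. Circulating red cells of mammals have lost their nuclei, and reticulocytes, the youngest of them, still carry message. Adult mouse liver is perfused by blood and can hold such cells and the macrophages that clear them.

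Both groups had received the diet for 16 weeks. The treatment labels name a Western diet (WD) and the titles a high-fat diet (HFD). The paper describes the mice of its single-cell libraries as fed the WD. The WT library is labelled control genotype and liver, and the N-LKO library NgBR knockout and liver plus tumor. NgBR is encoded by Nus1, and albumin-Cre, which is active in hepatocytes, removed its loxP-flanked allele, so that blood cells of the N-LKO mice keep the gene. All mice were males on the same C57BL6 background. Hepatocytes and nonparenchymal cells were released by collagenase perfusion and mixed in equal parts, with a smaller part of tumor cells added in N-LKO. Genotype, tumor tissue and library thus differed together and cannot be told apart. With 1 library for WT and 1 for N-LKO, differences between them could not be set against a spread between replicates, and no test was made. Intervals given after values are at 95% and cover counting error only.

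The WT library held 85522287 UMIs over 100171 barcodes and the N-LKO library 87575064 over 90147. The globin-rich barcodes were shallow, with a median of 1185 UMIs and 672 genes in WT (range 1014 to 3718 UMIs) and 1328 UMIs and 704 genes in N-LKO (1033 to 3801 UMIs). All filtered barcodes had medians of 1412 and 1467 UMIs. In total the members gave 38390 UMIs in WT and 63761 in N-LKO, which limits what can be said of any gene with a low count.

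The 4 globin genes that chose these barcodes lie in 2 clusters. Hba-a1 (ENSMUSG00000069919) and Hba-a2 (ENSMUSG00000069917) are on the forward strand of chromosome 11, at 32283511 to 32284465 and 32296489 to 32297298. Hbb-bs (ENSMUSG00000052305) and Hbb-bt (ENSMUSG00000073940) are on the reverse strand of chromosome 7, at 103826534 to 103828096 and 103812524 to 103813996 (GENCODE M21 positions on GRCm38). The 150 bases before each annotated start (RefSeq, GRCm38.p6) are shown because the genes were counted together in the same barcodes. They are written in gene orientation, with every match on either strand in capitals for the CACCC word, for the CCAAT box and for the ATATAA word. The windows are chr11:32283522-32283671 and chr11:32296342-32296491 for the alpha genes, and chr7:103827929-103828078 and chr7:103813924-103814073 for the beta genes.
Hba-a1: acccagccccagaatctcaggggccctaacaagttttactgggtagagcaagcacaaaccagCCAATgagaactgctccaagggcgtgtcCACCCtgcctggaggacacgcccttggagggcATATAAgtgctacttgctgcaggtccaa
Hba-a2: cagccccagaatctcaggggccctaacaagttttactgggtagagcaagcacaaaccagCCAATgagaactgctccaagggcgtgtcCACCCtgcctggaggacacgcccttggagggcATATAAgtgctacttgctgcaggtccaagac
Hbb-bs: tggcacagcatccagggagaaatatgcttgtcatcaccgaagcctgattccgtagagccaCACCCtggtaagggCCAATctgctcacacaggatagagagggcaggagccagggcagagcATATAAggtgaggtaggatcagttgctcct
Hbb-bt: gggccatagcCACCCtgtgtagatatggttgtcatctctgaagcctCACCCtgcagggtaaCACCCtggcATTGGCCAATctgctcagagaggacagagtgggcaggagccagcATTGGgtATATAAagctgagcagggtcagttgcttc

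The alpha windows were the same sequence, identical at 147 of 147 aligned bases and offset by their annotated starts. The beta windows were identical at 115 of 143. CACCC is the core of the element that KLF factors bind, CCAAT that of NF-Y, and ATATAA is a TATA box. In Hba-a1 they began 60, 88 and 28 bases before the start, and in Hbb-bs 90, 76 and 30. Hbb-bt held 3 matches to CACCC, and 3 to CCAAT, of which 2 are inverted. The inverted match that begins 80 bases before the start lies directly against the forward one at 75, and the other is at 36. All 3 words occurred together in 139 (0.423%) of 32851 promoter windows of this length, and singly in 37.4%, 24.5% and 5.35% of them. GATAA, a form of the GATA factor word, was also searched and had no match in these 4 windows, against 13.4% of all windows.

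The near identity of the alpha pair carries over to its transcripts and bears on how their UMIs were split. The longest protein-coding transcripts of Hba-a1 and Hba-a2 agreed at 537 of 538 aligned bases, and their last 200 bases, where a 3′ library reads, at 183 of 184. The division between Hba-a1 and Hba-a2 is therefore uncertain, and their sum is the safer value. The last 200 bases of Hbb-bs and Hbb-bt differed more, agreeing at 162 of 196.

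Globin UMIs per barcode ran from 20 to 132 in WT, with a median of 65.0, and from 21 to 325 in N-LKO, with a median of 52.0. As a share of all UMIs they made up 0.888% to 10.8% of a barcode in WT (median 5.52%) and 1.24% to 24.5% in N-LKO (median 3.82%). The WT range lay almost wholly within that of N-LKO, and the 3 highest counts, 325, 193 and 191, were all N-LKO. Globin was under 10% of UMIs in 26 of 27 WT and 39 of 43 N-LKO members and reached 50% of UMIs in none. None of the barcodes in the deposited matrices, of any depth, reached 50%.

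Summed over members, globin was 4.52% of the UMIs in WT and 4.70% in N-LKO. These values describe the rule and carry no test. Leaving out the single N-LKO barcode with 325 globin UMIs lowered the N-LKO share to 4.28%.

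The 4 genes kept much the same proportions in both libraries. Hbb-bs gave 1018 of 1736 globin UMIs in WT (58.6%, 56.3 to 61.0) and 1707 of 2995 in N-LKO (57.0%, 55.2 to 58.8). Hbb-bt, the minor beta gene, gave 155 UMIs (8.93%, 7.63 to 10.4) and 300 UMIs (10.0%, 8.96 to 11.2). Hba-a1 gave 329 UMIs (18.95%) and 555 (18.5%), and Hba-a2 gave 234 (13.5%) and 433 (14.5%). Beta chains were thus 67.6% (65.3 to 69.8) of globin UMIs in WT and 67.0% (65.3 to 68.7) in N-LKO, and the intervals overlapped. Single barcodes ranged from 42.9% to 81.6% beta in WT and from 48.8% to 78.3% in N-LKO. All 4 genes were detected in 24 of 27 WT and 42 of 43 N-LKO members, and the barcodes that lacked one lacked Hbb-bt.

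Similar proportions were found outside the members. Barcodes of 500 to under 1000 UMIs with at least 20 globin UMIs had 65.1% beta in WT (64.3 to 65.9) and 64.5% in N-LKO (63.5 to 65.4). Filtered barcodes with 1 to 19 globin UMIs were somewhat lower, at 61.6% in WT (58.5 to 64.6) and 61.7% in N-LKO (58.9 to 64.4). The embryonic genes Hba-x, Hbb-y, Hbb-bh1 and Hbb-bh2, which serve the yolk sac and early fetal stage, were at 0 in all members, which allows up to 3 UMIs in each library.

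**Figure D1:**
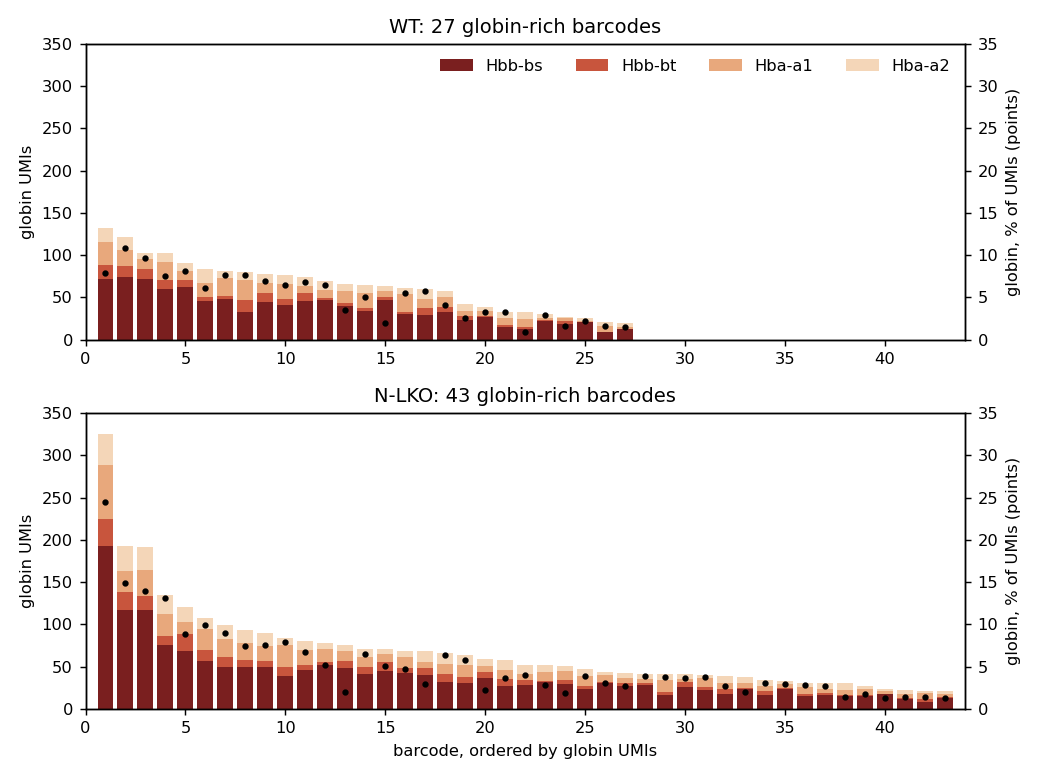
Globin UMIs of each globin-rich barcode, stacked by gene (left axis), with globin as a percentage of the barcode's UMIs (points, right axis), for WT above and N-LKO below. Hbb-bs is the largest part of nearly every bar, and only N-LKO barcodes pass 132 globin UMIs.

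Globin was not spread evenly over the libraries. No globin UMI was found in 19465 of 20158 filtered WT barcodes (96.6%) and 21539 of 22214 N-LKO barcodes (96.96%), and a single one in 552 and 490. The 259 WT and 305 N-LKO barcodes of any depth with at least 20 globin UMIs held 82.5% and 80.2% of all globin UMIs while being 0.259% and 0.338% of the barcodes. Just below the minimum, with 15 to 19 globin UMIs and the same limit on the 8 excluding genes, lay 2 WT and 8 N-LKO barcodes. Just above it, with 20 to 24, lay 2 WT and 4 N-LKO members. The barcodes on both sides held at most 1.68% globin.

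**Figure D2:**
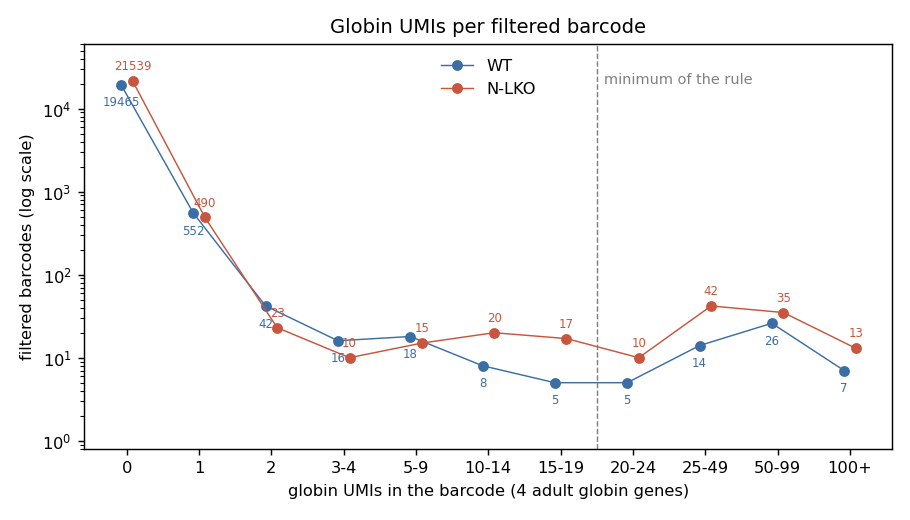
Number of filtered barcodes (log scale) by their globin UMIs, for WT and N-LKO, with the minimum of the rule as a dashed line. Most barcodes have 0 or 1 globin UMI. The bins widen to the right, so the heights of different bins cannot be compared as densities.

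Globin-rich barcodes were 0.134% (0.0883 to 0.195) of filtered barcodes in WT and 0.194% (0.140 to 0.261) in N-LKO. The ratio of the shares was 1.45, with an interval of 0.873 to 2.43 that included no difference. Per filtered barcode with at least 2 UMIs of the excluding genes, the ratio was 1.14 (0.689 to 1.92). With a UMI minimum of 500 it was 0.965, since WT then gained more barcodes (62 members) than N-LKO (55). For members these intervals held differences in either direction. Over all filtered barcodes with at least 20 globin UMIs, without the limit on the 8 excluding genes, the ratio was 1.745 (1.24 to 2.49), an interval that lay above 1 and covers counting error only.

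Before the limit on the 8 excluding genes, 52 WT and 100 N-LKO filtered barcodes reached 20 globin UMIs. Of these, 25 in WT (48.1%, 34.0 to 62.4) and 57 in N-LKO (57.0%, 46.7 to 66.9) carried at least 2 UMIs of the excluding genes. Filtered barcodes without globin did so at like rates, 42.5% in WT and 53.6% in N-LKO. Both background rates lay within the intervals of the globin-rich barcodes, so Kupffer, endothelial, lymphocyte and stellate transcripts were not detectably rarer beside high globin than elsewhere. The members left had no UMI of these genes in 18 of 27 WT and 22 of 43 N-LKO barcodes and exactly 1 in the others.

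Erythroid genes other than globin were rare in absolute terms but higher than in the other barcodes. The 10 markers with a gene in the matrices summed to 246 CPM (UMIs scaled to a common total of UMIs outside the 4 globin genes) in WT members (112 to 466) against 63.1 in other filtered WT barcodes, and to 477 CPM in N-LKO members (320 to 685) against 19.4 in other N-LKO barcodes. At least 1 such UMI was found in 8 of 27 WT members (29.6%) and 13 of 43 N-LKO members (30.2%), against 9.41% and 3.19% of other filtered barcodes. Thinned to 800 UMIs outside the globins, these shares were 19.1% and 23.1% in members against 4.82% and 1.54%.

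Alas2, the erythroid first enzyme of heme synthesis, was the most frequent of them, with 4 UMIs in 4 WT members and 10 UMIs in 10 N-LKO members. Other filtered WT barcodes held 52.9 CPM against 109 CPM in members (29.7 to 279), and other N-LKO barcodes 10.2 CPM against 165 CPM (78.9 to 303), so that the level of other barcodes lay within the members' interval in WT and below it in N-LKO. Without Alas2 the other 9 markers were at 136 CPM in WT members (5 UMIs, 44.3 to 318) and 313 CPM in N-LKO members (19 UMIs, 188 to 488), against 10.2 and 9.16 CPM in other filtered barcodes. The level in members was 14.7-fold higher in WT (4.32 to 31.6) and 34.98-fold higher in N-LKO (20.3 to 54.1). This was not particular to the members: globin-rich barcodes with at least 2 UMIs of the excluding genes held 55.3 CPM of these 9 markers in WT (2 UMIs, 6.70 to 200) and 149 CPM in N-LKO (14 UMIs, 81.5 to 250).

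Membrane genes made up a small part of this. Slc4a1, the red cell anion exchanger, was at 0 UMIs in WT and 3 in N-LKO. Epb42 had 1 UMI in each library. Kel, which carries the Kell blood group antigen, was at 0 in WT and had 3 UMIs in 3 N-LKO members, against 2 UMIs in the 22171 other filtered N-LKO barcodes. Over the 20 genes of the membrane and skeleton list the level was 573 CPM in WT members and 708 in N-LKO members, against 482 and 673 CPM in other barcodes. The levels of the other barcodes lay within the members' intervals (355 to 876 in WT, 512 to 953 in N-LKO).

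Genes of late maturation were higher in sum than in other barcodes. Bpgm, which makes the bisphosphoglycerate that tunes oxygen release, had 1 UMI in WT and 8 in N-LKO, and Tent5c, a poly(A) polymerase of maturing erythroblasts and plasma cells, had 4 and 6. The 21 genes of the late maturation list together stood at 1446 CPM in WT members (1083 to 1891) and 1711 in N-LKO members (1398 to 2074), against 811 and 940 CPM in other filtered barcodes. The list held 53 UMIs in WT and 104 in N-LKO. Of these Ubb gave 9 and 17, Bnip3l 8 and 10, Ube2h 6 and 11 and Xpo7 5 and 12. Each was at 1.13 to 1.92 times its level in other barcodes, and Rnf10 was at 0.755 and 0.636. Hemgn, Trim10 and Trim58 were at 0 in members of both libraries, so the sum is not read as a mark of red cell maturation.

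Most genes of red cell precursors were absent or near the level of the other barcodes. Besides Gata1 and Klf1, the master regulators of the lineage, 4 more of the 15 transcription factors of the erythroid list were at 0 in both libraries. The list summed to 464 CPM in WT members and 708 in N-LKO, against 418 and 526 CPM in other barcodes. Tfrc, the transferrin receptor that feeds iron to erythroblasts, had 2 UMIs in WT and 3 in N-LKO, and the mitochondrial iron importer Slc25a37 had 3 and 7, which was 3.28 and 4.24 times its level in other barcodes. Proliferation genes stood at 628 CPM in WT members and 856 in N-LKO against 657 and 865 CPM in other barcodes, with Mki67 at 0 and 1 UMI. The 16 genes of heme synthesis summed to 791 CPM in WT (530 to 1136) and 856 in N-LKO (639 to 1122), against 914 and 650.

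A single N-LKO barcode held more erythroid transcripts than any other. It had 1112 UMIs, of which 34 were globin and 40 hepatocyte markers, and 10 UMIs of the erythroid markers, among them 4 of Bpgm, 3 of Slc4a1 and 1 each of Alas2 and Epb42. It also carried 5 UMIs of Epb41 (protein 4.1), 3 of Xpo7, a nuclear exporter of erythroblasts, and 1 each of Rhag, Gypc, Car1 and Tfrc. All Slc4a1 UMIs of the members came from it. Without it the 9 markers other than Alas2 were at 168 CPM in N-LKO members (80.3 to 308), still above the 9.16 CPM of other barcodes. No other member had more than 3 erythroid marker UMIs.

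Outside the globins, no gene with at least 50 UMIs was 2-fold above the other filtered barcodes in both libraries. After the 4 globin genes, with 375- to 647-fold higher levels in members than in other filtered barcodes, the next gene by the lower of the ratios in WT and N-LKO was Chchd10 at 1.47, and the 20th was Arhgap15 at 1.18. Ribosomal protein genes took 7.87% of UMIs outside the globins in WT members and 5.49% in N-LKO, against 5.91% and 5.90% in other filtered barcodes. Mitochondrial genes took 14.4% and 17.3%, against 16.4% and 16.1%. Malat1, a nuclear RNA, was detected in every member, from 1 to 67 UMIs in WT (median 9) and from 3 to 135 in N-LKO (median 15), against medians of 11 and 17 in other filtered barcodes. It was 1.15% of UMIs outside the globins in WT members and 1.52% in N-LKO members, compared with 0.232% and 0.560% in barcodes under 500 UMIs. Other filtered barcodes had 1.02% and 1.28%.

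Markers of other cell types were present in these barcodes. The 10 hepatocyte markers, secreted proteins such as albumin (Alb), transthyretin (Ttr) and apolipoproteins among them, were detected in every member. The same held for nearly all other filtered barcodes (99.98% to 100% in each library). Summed over members, these markers were at 46243 CPM in WT and 20274 in N-LKO, against 43853 and 20415 in other filtered barcodes. In single members their share varied. The markers took 1.79% to 10.4% of UMIs outside the globins in WT (median 3.21%) and 0.596% to 8.48% in N-LKO (median 1.64%). Other filtered barcodes had medians of 4.03% and 1.35%. Barcodes under 500 UMIs, which are taken here as a picture of free RNA, had medians of 5.27% and 3.24%. Whether these barcodes hold free RNA alone was not tested. Mitochondrial genes took 21.1% of their UMIs outside the globins in WT and 34.8% in N-LKO. Among them, 21 in WT and 20 in N-LKO held at least 20 globin UMIs. By count, a pair of WT barcodes with 298 and 384 hepatocyte UMIs stood apart from the rest. They were also deep, at 3245 and 3718 UMIs. By share, at 9.37% and 10.4%, they lay near a WT barcode at 8.86% and the highest N-LKO barcode. Whether the hepatocyte RNA came from free RNA or from cells caught in the droplet was not tested.

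Neutrophil and monocyte markers were more frequent in N-LKO members, as they were in the N-LKO library at large. This did not hold for all leukocyte genes. Ptprc was at 600 CPM in WT members and 658 in N-LKO members, against 267 and 547 in other filtered barcodes. Cd52 was at 546 and 543 CPM in members, against 228 and 441, while Tyrobp was at 409 and 806, against 300 and 666. Neutrophil markers (S100a8, S100a9, Csf3r, Retnlg and Ly6g) were at 0 UMIs in all 27 WT members and summed to 186 UMIs in 11 of 43 N-LKO members, of which 169 lay in 4 barcodes with 11, 20, 55 and 83 UMIs. The other 32 N-LKO members had none, and Ly6g was at 0 in all members. In other filtered barcodes these markers stood at 101.5 CPM in WT and 397 in N-LKO, with a UMI in 3.70% and 12.6% of barcodes. The barcode with 83 also held 40 UMIs of Ngp, 7 of Camp and 5 of Ltf, granule genes of neutrophil precursors, beside 21 globin UMIs, and the one with 55 held 9, 7 and 1. Monocyte markers summed to 3 UMIs in 2 WT members and to 53 UMIs in 16 N-LKO members, with at most 10 in a barcode, against 82.8 and 310 CPM in other filtered barcodes. The log2 difference of the monocyte list was 3.21 in members and 0.23 with a mitochondrial limit of 10%, which left 8 members in each library. Siglech of plasmacytoid dendritic cells gave 3 UMIs in 1 WT member and 9 UMIs in 4 N-LKO members. Bile duct markers gave at most 1 UMI per barcode in WT and 11 in a single N-LKO barcode of 3801 UMIs. Plasma cell markers gave 1 UMI in WT and 12 in N-LKO, at most 1 per barcode. Platelet markers were at 0 in WT and 1 UMI in N-LKO.

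**Figure D3:**
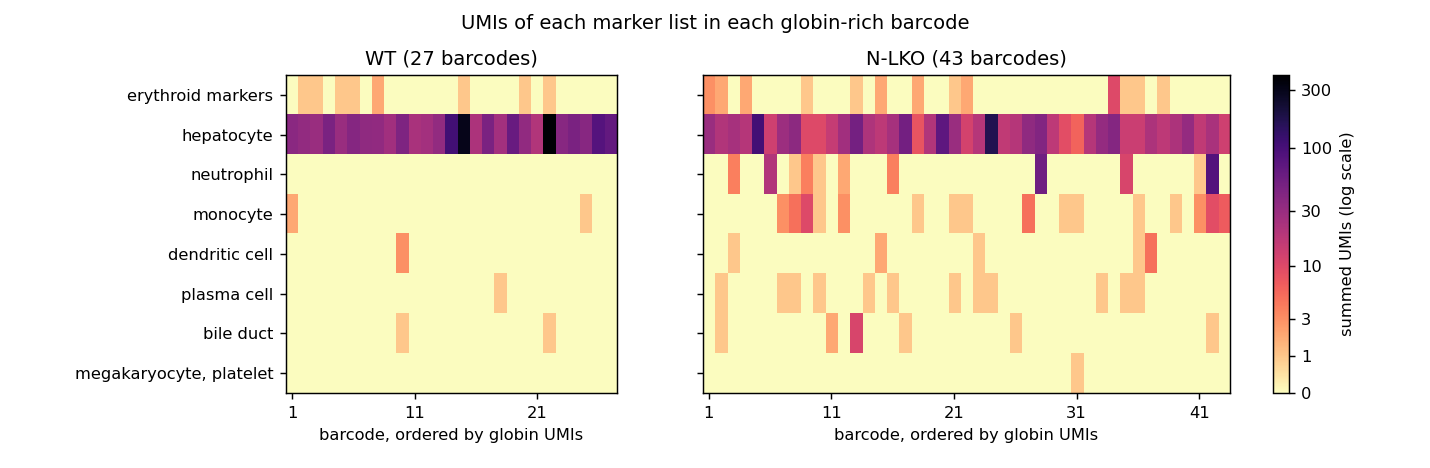
UMIs of 8 marker lists (rows, color on a log scale) in each globin-rich barcode (columns, ordered by globin UMIs) of WT and N-LKO. Hepatocyte markers fill every column, neutrophil markers appear only in N-LKO columns, and erythroid markers stay at or below 3 UMIs except in 1 N-LKO column with 10.

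**Figure D4:**
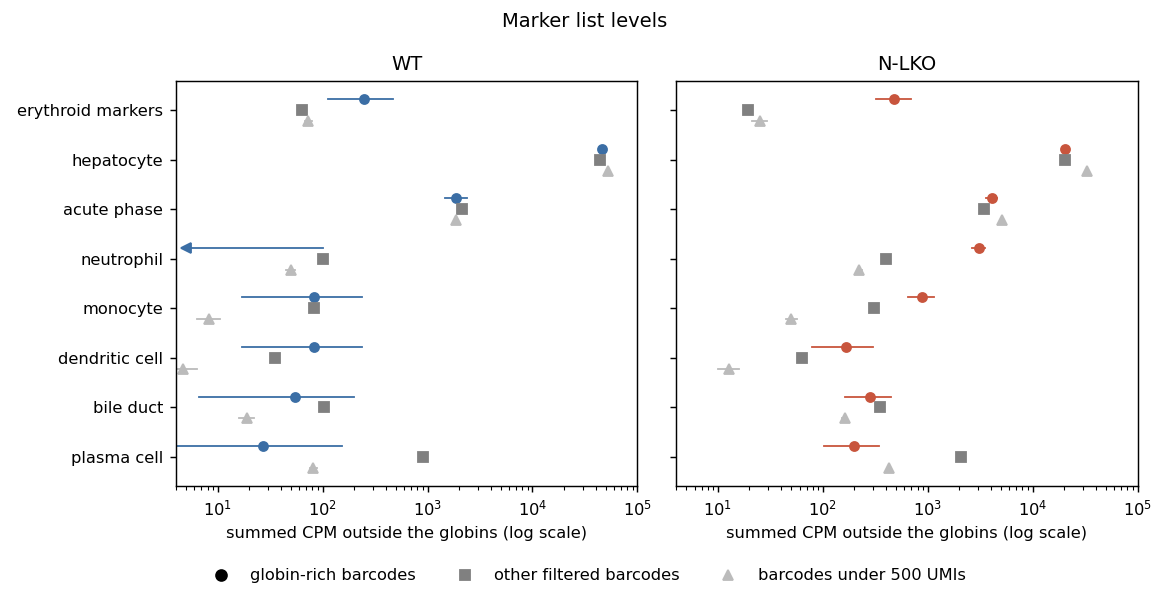
Summed level of 8 gene lists in CPM outside the globins (log scale), with 95% counting intervals, in globin-rich barcodes, other filtered barcodes and barcodes under 500 UMIs of WT and N-LKO. An arrow marks a list at 0 UMIs. Erythroid markers lie above both comparison groups in each library, and hepatocyte markers lie close to the other filtered barcodes.

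The comparison of N-LKO with WT asked whether the RNA of globin-rich barcodes differed between the groups. Over both libraries 662 genes reached 20 UMIs in members outside the 12 genes of the rule. On the log2 scale, with 0.5 UMI added to each sum, N-LKO members were 2-fold or more above WT members for 107 genes (16.2%) and 2-fold or more below for 129 (19.5%), and the median of all genes was -0.17. These calls are by size alone. Of the 107 genes, 102 were also above WT in the other filtered barcodes and 36 were there 2-fold above. Of the 129, 123 were below WT there and 77 were 2-fold below. The members and the other barcodes come from the same pair of libraries and are not independent.

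The erythroid lists gave few genes with enough counts to compare. None of the 10 erythroid markers reached 20 UMIs. Their sum was 0.91 higher in N-LKO members on the log2 scale, with an interval of -0.16 to 2.22, and 0.33 without the barcode with 10 erythroid UMIs. Free RNA was also subtracted in proportion to the hepatocyte markers, treating all their UMIs in members as free RNA, which was not tested. This took 87.6% of the UMIs outside the globins in WT members and 62.2% in N-LKO. By itself it moves the ratio of any gene by -1.61, and the sum of the erythroid markers was then at -0.35. In heme synthesis 1 of 16 genes was compared, Clpx, a mitochondrial protease subunit that activates the first enzyme of the path, with 5 UMIs in WT and 19 in N-LKO (log2 1.10, -0.27 to 2.97). In iron supply the ferritin chains Fth1 (184 and 161 UMIs, log2 -0.92) and Ftl1 (134 and 140 UMIs, log2 -0.67) were compared and neither passed 2-fold. Of 6 antioxidant genes compared, Cat (catalase) was lower in N-LKO at log2 -1.61 (-2.33 to -0.95), as was Gclc of glutathione synthesis at -1.55 (-2.85 to -0.39), beside 19.5% of all genes. The sum of the list was at -0.84, and at 0.54 with free RNA subtracted, which left 13.8 of its 261 UMIs in WT. The same genes were at -1.79 and -0.88 in other filtered barcodes. Nus1 itself, intact in blood cells of both groups by design, had 4 UMIs in WT and 2 in N-LKO, and its partner Dhdds 0 and 3, too few to compare.

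Acute phase genes, which the liver makes in inflammation, were higher in sum in N-LKO members, as they were in other filtered barcodes of that library. Of 6 genes compared, 4 were 2-fold higher and none 2-fold lower, beside 16.2% and 19.5% of all genes. Mt1 and Saa1 reached 20 UMIs only through N-LKO and so had to differ, and the count is not read against those shares. The 4 were Mt1 with 1 UMI in WT and 27 in N-LKO, Saa1 with 1 and 20, Hp with 12 and 61 (log2 1.57, 0.71 to 2.64) and Crp with 7 and 31 (log2 1.34, 0.21 to 2.85). The list summed to 1882 CPM in WT members (1465 to 2382) and 4065 in N-LKO members (3574 to 4605). In other filtered barcodes it stood at 2107 CPM in WT and 3416 in N-LKO (log2 0.70). There Mt1, Saa1 and Hp were at log2 2.70, 1.855 and 0.98, while Crp was at -0.15. In barcodes under 500 UMIs the list stood at 1862 and 5109 CPM. The log2 difference of the list was 1.10 in members and -0.27 with free RNA subtracted, which left 14.9 of 69 UMIs in WT and 64.1 of 247 in N-LKO.

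Hepatocyte markers were lower in sum in N-LKO members. Of 10 markers compared, 4 were 2-fold lower and none 2-fold higher, beside 19.5% and 16.2% of all genes, and Fgb was at 0.15. The 4 were Alb with 479 UMIs in WT and 295 in N-LKO (log2 -1.43, -1.64 to -1.22), Apoa2 (-1.53), Ttr (-1.44) and Serpina1c (-1.64). Their sum differed by -1.19 (-1.30 to -1.08) in members, by -1.10 in other filtered barcodes and by -0.69 in barcodes under 500 UMIs. In members the difference was -0.36 with a mitochondrial limit of 10%, -0.78 with a globin minimum of 50 UMIs and -0.90 with no excluding UMI. A UMI minimum of 500 gave -1.13. The WT sum of 1695 UMIs rested in part on the pair of barcodes with 298 and 384.

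Among genes with at least 50 UMIs, the highest ratios belonged to the calprotectin genes S100a9 and S100a8, with 99 and 76 UMIs in N-LKO and 0 in WT. Both reached 50 UMIs only through N-LKO and so had to differ. Against 3 UMIs over the WT members, the level that a count of 0 allows, these were at least 19.9-fold and 15.3-fold higher in N-LKO. With the counting error of both sums, the lower limits were log2 3.99 and 3.6. Without the 4 barcodes with 11 to 83 neutrophil UMIs, 6 and 4 UMIs remained, 1.30 and 0.869 times the WT limit, so that the difference rested on those barcodes. Next were Mtss1 (log2 2.38, 1.18 to 4.19), Pid1 (1.66), the nuclear RNA Neat1 (1.65), the plasma proteins haptoglobin (Hp, 1.57) and ceruloplasmin (Cp, 1.502), H2-Aa and Cd74 of antigen presentation by MHC class II (1.48 and 1.20) and the adhesion molecule Alcam (1.29). These genes, too, owed most of their UMIs to N-LKO, as did Mtss1 with 5 in WT and 47 in N-LKO. H2-Aa and Cd74 were at -0.50 and -0.47 with a mitochondrial limit of 10%. With free RNA subtracted they were at -0.054 and -0.41 and Alcam at -0.33, where the subtraction by itself moves any ratio by -1.61.

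Among the lowest ratios, Car3, a carbonic anhydrase, fell from 75 UMIs in WT to 23 in N-LKO (log2 -2.41, -3.18 to -1.74), and the methyltransferase Gnmt from 52 to 16 (-2.40, -3.34 to -1.60). The urea cycle enzyme Ass1 was at -2.24, Akr1c6 at -2.10, the respiratory chain subunit Cox6c at -2.07, the urinary protein Mup3 at -2.07, the fatty acid binding protein Fabp1 at -1.998 (-2.26 to -1.75), Acaa1b at -1.90 and Chchd10 at -1.75. In other filtered barcodes of the same libraries these 9 genes ran from -1.30 (Cox6c) to -2.80 (Car3), in the same direction. Subtracting free RNA left 0 UMIs in WT for 8 of the 9, all but Gnmt, so that no direction can be read for them after it.

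**Figure D5:**
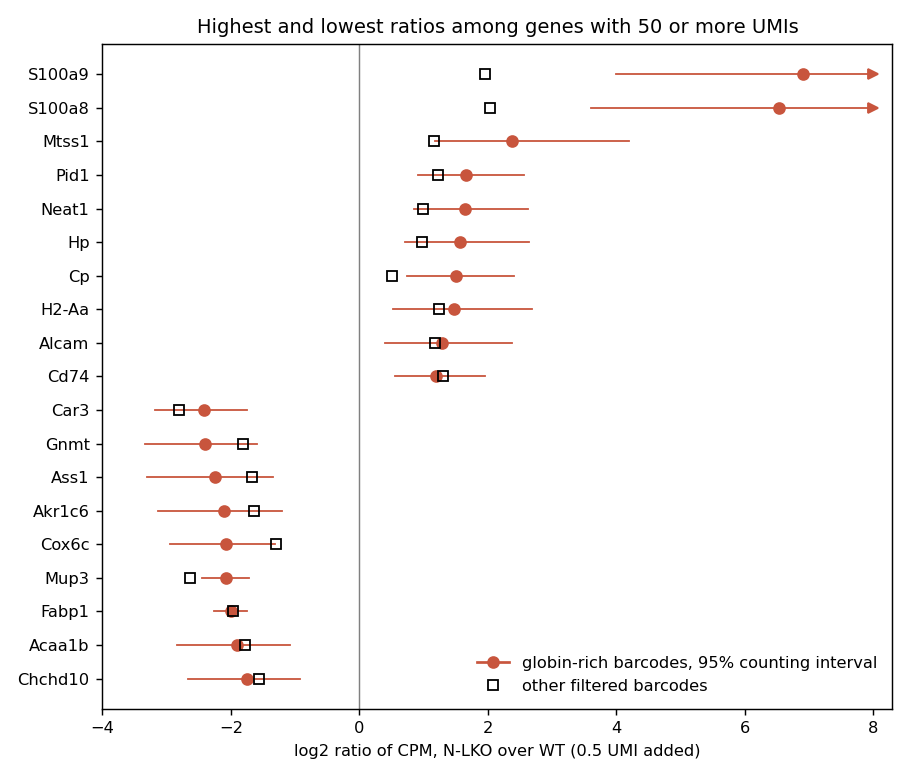
Log2 ratio of N-LKO over WT for the 10 highest genes and 9 of the 10 lowest with at least 50 UMIs in globin-rich barcodes (filled points with 95% counting intervals), beside the ratio in other filtered barcodes (open squares). An arrow marks an interval without upper limit. Direction was shared for all 19 genes. S100a8 and S100a9, which reached 50 UMIs only through N-LKO, stand apart from the squares.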

How the data were processed

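Droplet libraries of dissociated liver were read from the UMI counts that the authors deposited, whole numbers per gene and barcode with no scaling, made with Cell Ranger 7.1.0 as the file header states. The submitters' processing notes also list mm9 and Seurat without a role. Whether intron reads were counted is not given in the sources used here. Red cell lysis is described by the study for flow cytometry and not for these libraries. The study's cell annotation and cell filter were not used. The study clustered fewer cells per genotype than the filtered barcodes counted here, so some of these may not pass its filter.

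The members and the gene lists were chosen with earlier results of these data known. Groups came from the genotype labels. UMIs were summed over members of a library and scaled to CPM of UMIs outside the 4 globin genes. For ratios 0.5 UMI was added, and genes with at least 20 UMIs over both libraries were compared by size (2-fold), with no p-values, since each group has 1 library. Sums carry exact Poisson, shares exact Clopper-Pearson and ratios exact conditional binomial intervals at 95%. A count of 0 allows 3 UMIs. Besides list genes, the text names the 10 highest and 10 lowest log2 ratios, and the 20 genes highest in members over other filtered barcodes, among genes with at least 50 UMIs. Some genes of the lists and of this rule are not reported here. Detection was also computed after thinning to 800 UMIs outside the globins, a depth every member reached. Barcodes under 500 UMIs stood for free RNA, and whether they hold free RNA alone was not tested. Doublets were scored with Scrublet (scanpy 1.11.5) and kept: a score over 0.25 marked 8.55% of filtered WT and 10.6% of N-LKO barcodes, and 2 WT and 1 N-LKO members. The interval functions were tested on simulated counts. Ahsp was not analysed here. Scripts ran under Python 3.11.15 with scipy 1.17.1 for the intervals, numpy 2.4.6 and pandas 2.3.3 for the sums, Biopython 1.88 for alignments and matplotlib 3.10.9 for plots.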

Additional observations from a re-analysis of the deposited data

Results flagged for a closer look

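Globin was also found below the UMI minimum, in data that the comparisons did not use. At 500 to under 1000 UMIs, 181 WT and 160 N-LKO barcodes held at least 20 globin UMIs, counted without the limits on genes, mitochondrial UMIs and the 8 excluding genes that members pass. With those limits kept, a UMI minimum of 500 gave 62 WT and 55 N-LKO members in place of 27 and 43. The 181 and 160 barcodes carried 13127 of the 15121 globin UMIs of that depth range in WT and 9168 of 11212 in N-LKO. Globin was a median of 9.29% of their UMIs in WT and 6.71% in N-LKO, and the highest value was 33.9% and 31.1%.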

How the results depend on the processing

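No paired analysis was possible because each group has 1 library and the groups share only replicate number 1. Of 18 alternatives, 4 were chosen after seeing the data: leaving out the barcode with most erythroid UMIs, the 4 with most neutrophil UMIs, the one with most globin UMIs, and those with hepatocyte markers above 8%.

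A UMI minimum of 500 gave 62 WT members with 6.15% globin. A mitochondrial limit of 10% left 8 WT and 8 N-LKO members with 6.28% and 4.52% globin, with 4.90% of genes 2-fold higher and 40.2% lower in N-LKO, and turned the bile duct list to -1.84, H2-Aa to -0.50 and Cd74 to -0.47 (log2). A globin minimum of 50 UMIs left 24 N-LKO members, gave 6.04% and 6.31% globin and 9.39% of genes 2-fold higher. Requiring globin at 10% of UMIs left 1 WT and 4 N-LKO members (ratio of shares 3.63, globin 10.8% and 16.8%). Requiring no excluding UMI left 22 N-LKO members, with 4.05% globin in WT and 4.23% in N-LKO. Hepatocyte markers at most 2% left 2 WT and 29 N-LKO members (ratio 13.2, globin 3.77% and 3.84%). This limit was put on members and not on the filtered barcodes they were divided by. In other filtered barcodes the lower quartile of these markers was 2.08% in WT and the upper quartile 1.94% in N-LKO. The limit itself thus sets much of this ratio, which is not read as a difference in globin-rich barcodes. Gene comparisons were not made under these last limits on globin share and hepatocyte markers, which left fewer than 5 members in a library. Averaging each member's own share gave 5.10% and 5.26% globin. Leaving out the barcode with most globin gave 4.28% in N-LKO, and leaving out those above 8% hepatocyte markers 5.22% in WT.

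Subtracting free RNA in proportion to the hepatocyte markers treats all their UMIs in members as free RNA, which was not tested. It took 87.6% of UMIs outside the globins in WT and 62.2% in N-LKO, which moves every log2 ratio by -1.61 through the totals. Genes below 0 were set to 0. Erythroid markers came to -0.35 and genes 2-fold lower to 42.2%. Of 17 lists 12 changed sign, among them iron supply (1.56), antioxidants (0.54), late maturation (-1.03), membrane (-1.31), acute phase (-0.27) and plasma cell (-2.34, at 0 UMIs in both libraries), and so did H2-Aa (-0.054), Alcam (-0.33) and Cd74 (-0.41). Car3 (1.77), Cox6c (0.32), Mup3 (2.27), Fabp1 (4.65), Acaa1b (0.40) and Chchd10 (1.46) were left with 0 UMIs in WT, so that their sign comes from the subtraction itself.

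Over the alternatives 35 of 250 list values and 11 of 266 values of named genes changed sign, with 7 of 18 lists under a mitochondrial limit of 10% and 7 of 18 under a globin minimum of 50 UMIs. Values stayed within the counting interval of the reported one in 213 and 228 cases. Some of these cases were fixed in advance. A gene minimum of 5 UMIs left every list and named gene value as reported. Other totals for CPM moved all ratios by the same small amount. Causes were not tested where none is given. Depth limits all erythroid genes other than globin, which rest on 9 and 29 UMIs.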

Other observations

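Alas2 was found widely outside the globin-rich barcodes. Over all barcodes it gave 4752 UMIs in WT (55.6 CPM, 54.0 to 57.2) and 1032 in N-LKO (11.8 CPM, 11.1 to 12.5), and only 58 and 42 of these lay in barcodes with at least 20 globin UMIs. Filtered barcodes without a UMI of the 8 excluding genes held 64.6 CPM in WT and 15.2 in N-LKO, and those with at least 2 such UMIs 37.9 and 7.48 CPM. Klf1 gave 73 UMIs in WT and 37 in N-LKO over all barcodes and none in barcodes with at least 20 globin UMIs of either library.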
